A study of Mus musculus with 16 samples.

Results

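The miRNAs described here are the features whose array names begin with mmu-miR-297, mmu-miR-466, mmu-miR-467 or mmu-miR-669. Chosen by name alone, they number 39 of the 650 features on the array: 3 named miR-297, 14 miR-466, 10 miR-467 and 12 miR-669. Levels are deposited log2 values from single-channel Agilent miRNA arrays hybridised with total RNA of whole liver from male C3H mice, with 16 arrays in 4 groups of 4. Wild-type mice (WT) on a diet free of phenobarbital form the WT control group, and WT mice given 0.05% phenobarbital in the diet for 12 weeks the WT phenobarbital group. The CTNNB1KO control and CTNNB1KO phenobarbital groups hold mice treated in the same 2 ways that lack Ctnnb1, the gene of beta-catenin, in hepatocytes. That deletion comes from a Cre recombinase under the albumin promoter, which acts on loxP-flanked Ctnnb1 in hepatocytes, so the other cells of the liver keep the gene. The labels name water as the agent of the controls, whereas the treatment protocol gives them phenobarbital-free food. They state neither the age of the mice nor whether WT animals carried the Cre transgene or the loxP sites. Whether the arrays come from different animals is not stated, and the p-values below therefore speak of array-to-array spread, part of which may be technical.

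As background, a miRNA is a short RNA that, loaded into an Argonaute protein, pairs through its seed (bases 2 to 8) with messenger RNAs and lowers their output. The mouse gene Sfmbt2, which encodes a Polycomb-group protein, is imprinted and read from the paternal copy, above all in early embryos and extraembryonic tissue. One of its introns holds a rodent-specific array of miRNA hairpins that expanded by duplication, and their products are best known from placenta and embryonic stem cells. Phenobarbital activates the nuclear receptor CAR in hepatocytes and promotes liver tumours in mice.

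The names do not all lead to Sfmbt2. In the RefSeq gene table of GRCm38.p6, 81 miRNA genes carry one of the 4 numbers, and 71 of them lie within Sfmbt2 on chromosome 2, side by side with 1 other gene among them. Of the 39 array features, 29 correspond only to hairpins within Sfmbt2, and 3 (miR-297a*, miR-466f-3p and miR-466f-5p) to hairpins both there and on another chromosome. A further 5 (miR-466i, miR-466j, miR-466k, miR-467f and miR-467g) correspond only to genes on other chromosomes, and miR-466a-3p and miR-466a-5p matched no gene by name. A feature can also stand for many copies: miR-669a for 12 hairpins in Sfmbt2, miR-467a for 10 and miR-466b-5p for 8.

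A mature sequence in the RefSeq miRNA table (GRCm38.p6) matched 5 of the 39 members, and these are the 5 outside Sfmbt2. They are shown because the brightest member is among them and because these 5 hold CA or UG repeats. No other member had a sequence matched, so these 5 do not speak for the rest of the set. Capitals mark the seed, and each is written 5′ to 3′.
miR-467f: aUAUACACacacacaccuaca
miR-466i: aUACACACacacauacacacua
miR-467g: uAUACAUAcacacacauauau
miR-466k: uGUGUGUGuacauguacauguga
miR-466j: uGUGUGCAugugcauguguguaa
miR-467f lies at chr11:69635419-69635439 on the minus strand, miR-466i at chr13:17747552-17747573 on the plus strand and miR-467g at chr5:34732872-34732892 on the minus strand. miR-466k lies at chr3:85467396-85467418 and miR-466j at chr10:60960802-60960824, both on the plus strand. The array name miR-466i has no arm; its sequence is the 1 product of that hairpin in the table, listed as the 3p arm. The 5 members have 5 different seeds. The first 3 sequences are CA repeats, with alternating C and A over 12 bases in miR-467f, 11 in miR-466i and 9 in miR-467g. The last 2 are UG repeats, with alternating U and G over 9 bases in miR-466k and 7 in miR-466j.

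An alternating run of at least 8 bases was searched as ACACACAC or CACACACA and as UGUGUGUG or GUGUGUGU, each on the miRNA strand as written. Among the 176 mouse features matched to 1 mature sequence, the CA run was held by 3 (1.70%), all of them members. The UG run was also held by 3 (1.70%), namely miR-466k and the non-members miR-1187 and miR-574-5p. The sequences of those non-members are shown for comparison with the UG-repeat members.
miR-1187: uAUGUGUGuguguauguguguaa
miR-574-5p: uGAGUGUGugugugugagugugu
miR-1187 is encoded at chr5:82798964-82798986 on the minus strand and miR-574-5p at chr5:64970328-64970350 on the plus strand.

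Across the series, same-group arrays correlated between 0.966 and 0.996 over mouse features. The hepatocyte miRNA miR-122 lay between 15.05 and 15.33 on every array, and miR-192, another liver-enriched miRNA, between 11.32 and 11.69. The value of miR-122 was identical, 15.28, on all WT control arrays and on CTNNB1KO phenobarbital replicate 3. Why these values are tied was not tested, so the narrow range is not a measure of hepatocyte content. The muscle miRNA miR-1 exceeded the background level on 2 arrays only, CTNNB1KO phenobarbital replicates 1 and 2, and its highest value was 8.17. An array of miRNAs does not measure Ctnnb1 mRNA, so the deletion was not checked. Background was read from 39 miRNA features of mouse cytomegalovirus and mouse gammaherpesvirus. The dim floor was set at the 0.95 quantile of their means, a log2 value of 3.98.

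By the dim floor, the set as a group was not detected in liver. Only miR-467f, encoded outside Sfmbt2, had a group mean above the dim floor, and it did so in 1 group by 0.00032 on the log2 scale (WT phenobarbital). That count of 1 became 0 with the floor at the highest viral mean and with arrays centred on their medians. It stayed 1 with the floor at the viral mean plus 2 SD. By another rule, values above the floor of their own array on at least 3 of the 4 arrays of a group, it was 0. None of the 29 features found only within Sfmbt2 had a group mean above the dim floor. Of the other 572 mouse features, 140 (24.5%) had such a mean, against 1 of the 39 members (2.56%). Among the 39 viral features 3 (7.69%) had such a mean in at least 1 group. Mean values of the 39 members over all arrays ran from 3.14 for miR-297a* to 3.84 for miR-467f, with a median of 3.34 and quartiles of 3.23 and 3.43. The viral features had a median of 3.23 and ran from 3.15 to 4.60, and the means of 38 of the 39 members lay within that range. Of the members 29 of 39 lay above the viral median, as did 336 of the 432 other mouse features under the floor in every group. The viral upper quartile was 3.32. Above that quartile lay 22 of the 39 members and 179 of those 432 features. The floor thus rests on a few bright viral features, 2 of which had means above it, 4.60 and 4.16. Mouse features outside the set that lay under the floor in every group had a median of 3.30.

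**Figure D1:**
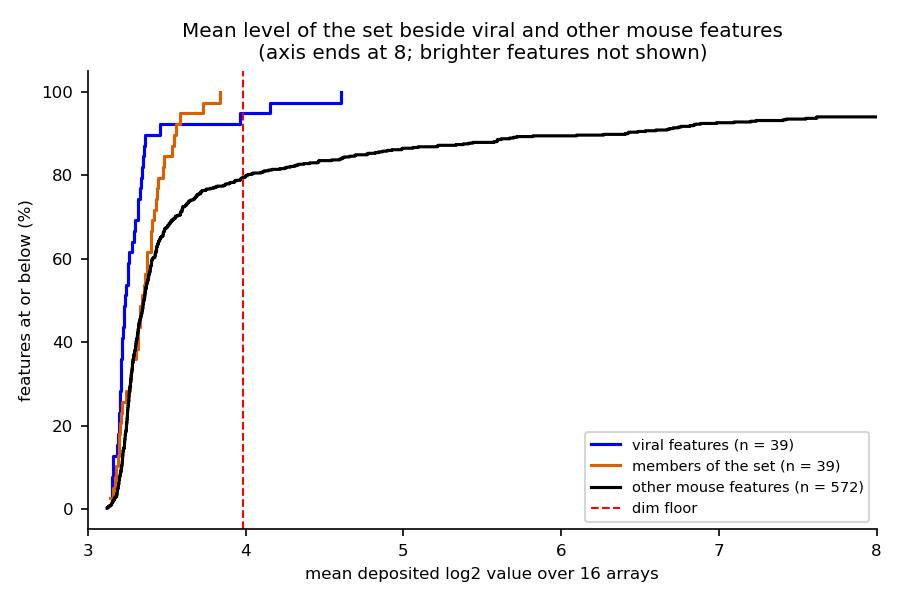
Cumulative share of features (vertical axis, percent) by mean deposited log2 value over 16 arrays (horizontal axis) for the 39 members, the 39 viral features and the 572 other mouse features; the dashed line is the dim floor. The members' line ends at 3.84, left of the floor, while the other mouse features continue to values beyond the axis.

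Among all 624 values of the set (39 members on 16 arrays), 5 exceeded the floor, all of them of miR-467f. The viral features exceeded it in 36 of their 624 values. The set's 464 values from features found only within Sfmbt2 held none above the floor. Another imprinted cluster, the miRNAs from miR-379 to miR-410 on chromosome 12, had 8 of 49 features above the floor in at least 1 group, and its median mean was 3.34 as well. In whole liver, fewer cells making a miRNA and less of it per cell cannot be told apart.

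**Figure D2:**
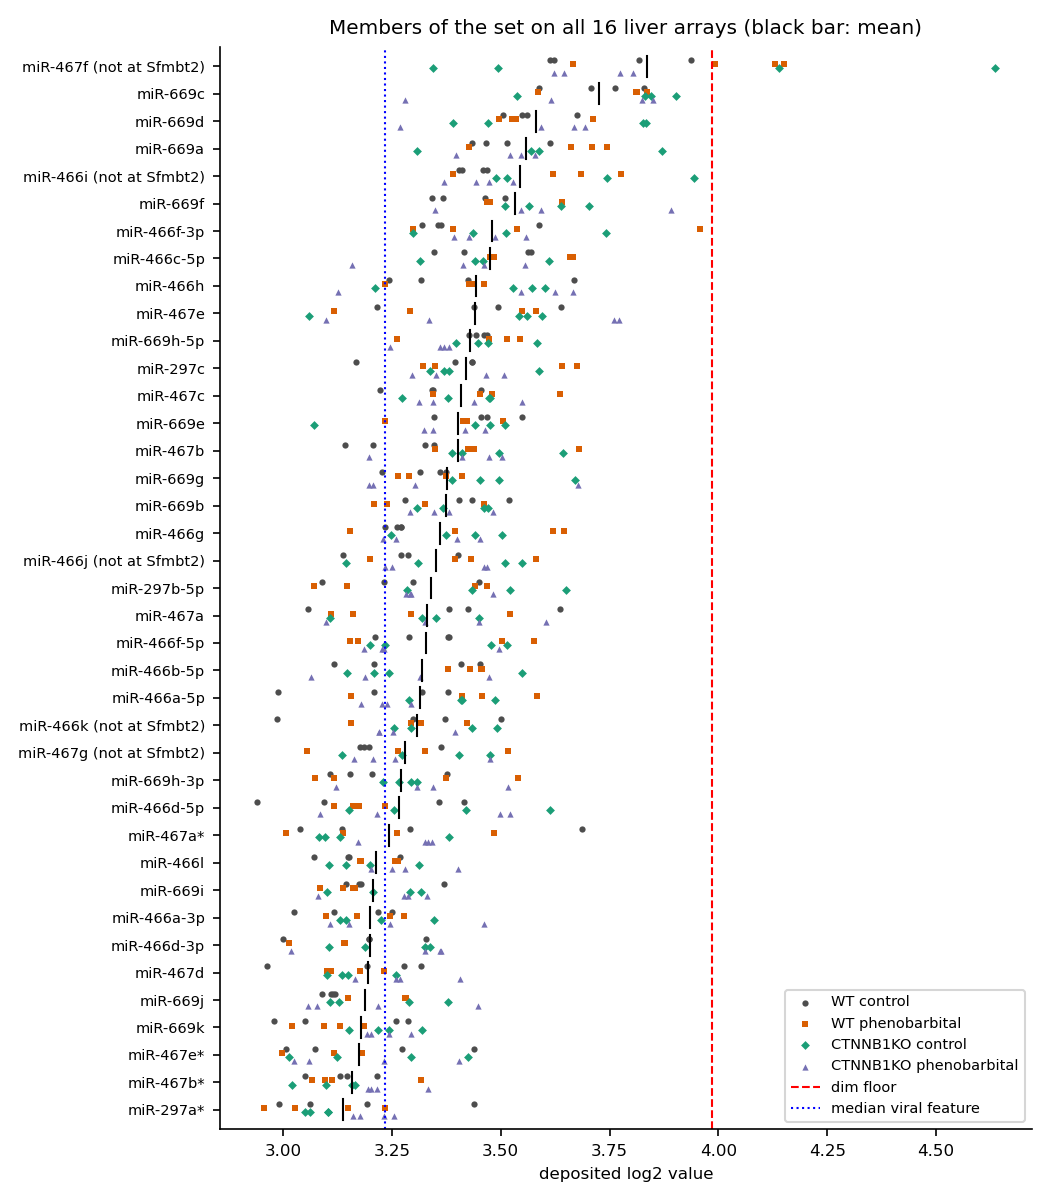
Deposited log2 values (horizontal axis) of the 39 members (rows, ordered by mean) on all 16 arrays, with colour and marker for the group, a black bar for the mean over arrays, the dim floor dashed and the median viral feature dotted. Only miR-467f has points right of the floor, 5 in number, and the other 38 members lie left of it on every array.

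The 4 name groups lay close together. The 12 miR-669 features had a median mean of 3.39, the 3 miR-297 features 3.34, the 14 miR-466 features 3.32 and the 10 miR-467 features 3.31. Within miR-669 the means ran from 3.18 (miR-669k) to 3.73 (miR-669c), within miR-467 from 3.16 (miR-467b*) to 3.84 (miR-467f), within miR-466 from 3.20 (miR-466d-3p) to 3.54 (miR-466i) and within miR-297 from 3.14 (miR-297a*) to 3.42 (miR-297c). miR-466l, known in mouse macrophages for stabilising the messenger of the cytokine interleukin-10, averaged 3.21. Its values lay between 3.07 and 3.40, all under the floor. For 7 names, some of them shared by several hairpins, both arms were on the array. The difference between the arms' means was 0.27 or less in each, and since it sets different probes near background side by side, it does not show which arm is kept.

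miR-467f was the brightest member and the 1 just above the floor. The 4 WT control arrays (replicates 1 to 4) read 3.82, 3.61, 3.62 and 3.94, and the 4 WT phenobarbital arrays 4.15, 3.67, 3.99 and 4.13. In CTNNB1KO controls it read 4.14, 3.34, 4.64 and 3.49, and in CTNNB1KO with phenobarbital 3.80, 3.62, 3.65 and 3.77. The CTNNB1KO controls thus hold both its highest and its lowest value, and the 4 groups overlap. Group means were 3.75 ± 0.16, 3.99 ± 0.22, 3.90 ± 0.60 and 3.71 ± 0.09 (SD, n = 4) in that order. The upper end of the viral features, though not their median, stood high on several of the same arrays. On WT phenobarbital replicates 1, 3 and 4 and CTNNB1KO control replicate 1 the viral median lay between 3.20 and 3.26. Over all arrays it ran from 3.13 to 3.34. Of the 5 values above the common floor, 4 (WT phenobarbital replicates 1, 3 and 4 and CTNNB1KO control replicate 1) lay below the 0.95 quantile of the viral features on their own array, which stood there between 4.16 and 4.26. The value of 4.64 on CTNNB1KO control replicate 3 was the 1 value of the set above both floors, 0.67 over that of its array.

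miR-669c was the member just below the floor and the brightest one inside Sfmbt2; as background, it has been listed among miRNAs that increase in ageing mouse liver. WT controls read 3.59, 3.71, 3.76 and 3.83, and WT phenobarbital arrays 3.59, 3.81, 3.81 and 3.84. It read 3.54, 3.83, 3.90 and 3.85 in CTNNB1KO controls and 3.61, 3.82, 3.85 and 3.28 in CTNNB1KO with phenobarbital. All 4 groups overlap, and the lowest value is that of CTNNB1KO phenobarbital replicate 4, the group with the largest SD (0.26, against 0.10 in WT controls). That array also had the fewest mouse features above the floor, 100 against up to 133 elsewhere. Next by mean was miR-669d, at 3.58, with values from 3.27 on the same array to 3.83 on CTNNB1KO control replicate 3. miR-669a, which in mouse cardiac progenitors is known to prevent skeletal muscle differentiation, averaged 3.56 with a highest value of 3.87. It lay between 3.52 and 3.55 on the 2 arrays that carried muscle miRNAs.

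With the floor taken on each array separately, 10 values of 6 members lay above it, spread over 6 arrays (miR-467e, miR-467f, miR-669a, miR-669c, miR-669d and miR-669f). No member was above the floor of its array on 3 of the 4 arrays of any group. The array floors themselves ran from 3.61 to 4.26, so a fixed level does not mean the same on each array.

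The members varied little between arrays. The SD within groups, pooled over the 4 groups, had a median of 0.14 over the 39 members, against 0.13 for other mouse features under the floor and 0.12 for viral features. It ran from 0.078 to 0.33. The largest were those of miR-467f (0.33), miR-467e (0.25) and miR-467a (0.20). Group means of a member lay at most 0.27 apart (miR-467f), with a median range of 0.13. That range had a median of 0.12 for other mouse features under the floor and of 0.12 for viral features.

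The median over the 39 members on single arrays ran from 3.22 on WT control replicate 4 to 3.44 on CTNNB1KO control replicate 3. By group these array medians averaged 3.32 ± 0.07 for WT controls, 3.35 ± 0.04 for the WT phenobarbital group, 3.38 ± 0.04 in CTNNB1KO controls and 3.33 ± 0.05 in CTNNB1KO with phenobarbital (SD, n = 4). WT control replicate 4 held the lowest value of 11 of the 39 members (28.2%). It also held the lowest value of 105 of the 432 other dim mouse features (24.3%), the highest value of 64 of them (14.8%) and the lowest viral median, 3.13. Dim features in general thus took extreme values on that array, low ones more often than high ones.

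Not all members were low there. miR-467e and miR-467a read 3.22 and 3.06 on WT control replicate 4, whereas the opposite arms miR-467e* and miR-467a* had their highest values on it, 3.44 and 3.69. miR-467e was also low on WT phenobarbital replicate 1 (3.12), CTNNB1KO control replicate 1 (3.06) and CTNNB1KO phenobarbital replicate 4 (3.10), and it lay between 3.29 and 3.77 on the other 12 arrays. Its low values come from 1 array of each group, so the groups overlap. miR-467a read 3.11, 3.11 and 3.10 on those 3 arrays. As background, both arms of a hairpin come from 1 precursor.

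**Figure D3:**
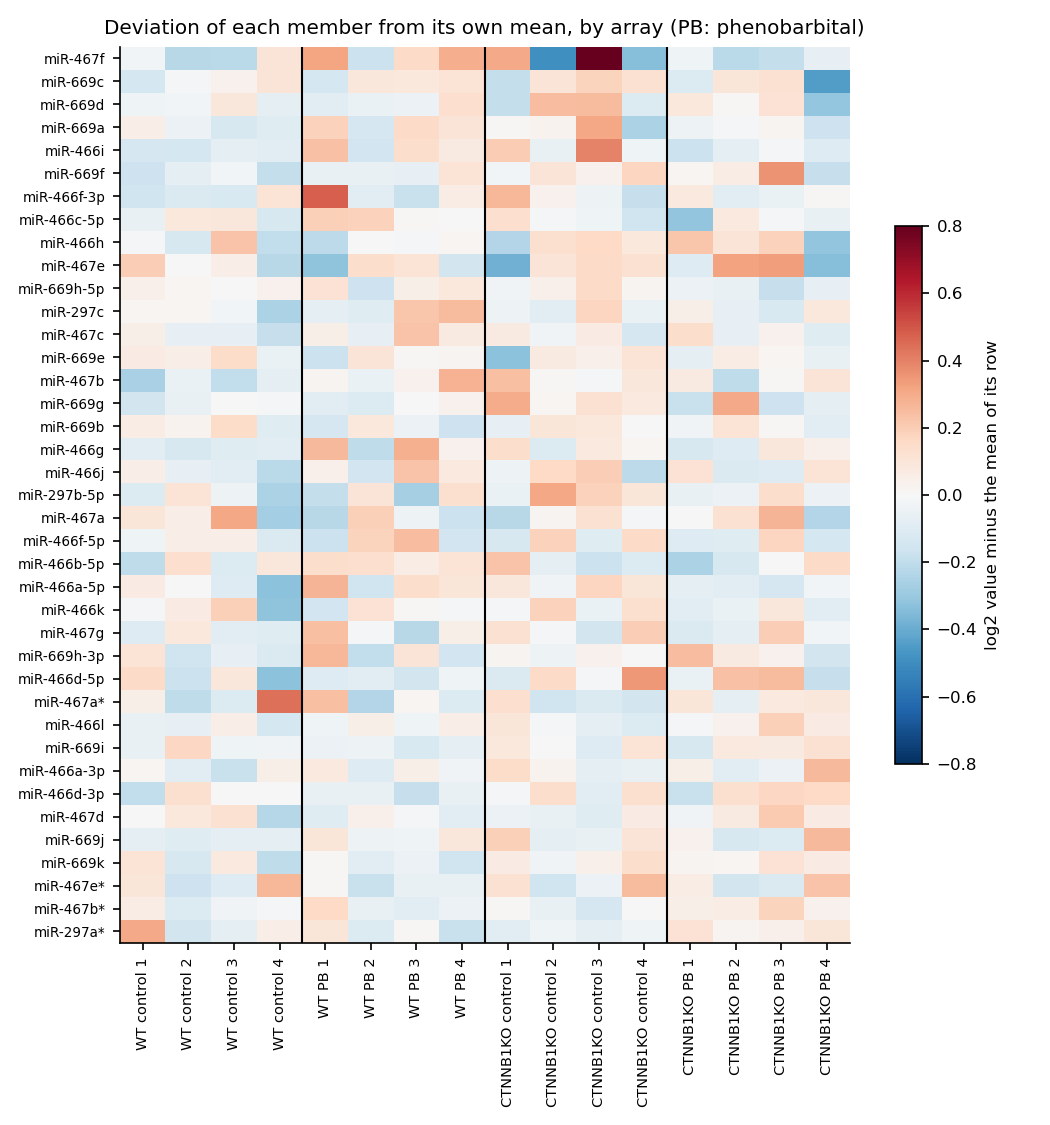
Log2 value of each member (rows, ordered by mean) minus its own mean over 16 arrays, for each array (columns, separated by group); red is above and blue below the mean. miR-467f on CTNNB1KO control replicate 3 is the darkest cell, and WT control replicate 4 is blue for miR-467a and red for miR-467a*.

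CTNNB1KO control replicate 3 and CTNNB1KO phenobarbital replicate 3 each held the highest value of 6 members (15.4%), and of 5.79% and 5.09% of the other dim mouse features. WT control replicate 3 and WT phenobarbital replicate 1 held that of 5 members each. On CTNNB1KO control replicate 3 the members at their highest included miR-467f (4.64), miR-466i (3.94), miR-669c (3.90), miR-669a (3.87) and miR-669d (3.83). The bright feature miR-494, encoded on chromosome 12, had its highest value on the same array, 9.68, against a lowest of 5.11 elsewhere, and miR-1187 did too, at 4.32. miR-574-5p, the UG-repeat feature above the floor on every array, read 4.96 there, with a range of 3.99 to 4.97.

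Within groups, miR-467f and miR-466i moved together. After subtraction of group means, Pearson's r over the 16 arrays was 0.84 (Spearman's rho 0.67), and 0.69 without the 2 arrays farthest from the median of miR-467f. The member next most like miR-467f was miR-669a (r = 0.69). Outside the set, the 3 most alike were miR-30c-1* (r = 0.82, and 0.84 without those 2 arrays), miR-880 (0.79, and 0.66) and miR-376b* (0.79, and 0.56). All 3 averaged between 3.25 and 3.43, under the floor. With miR-494 the r of 0.45 turned to -0.29 without the 2 arrays, so that likeness rests on them. For miR-574-5p r was 0.58, and 0.55 without those arrays, and for miR-1187 it was 0.02, and -0.35. Apart from these comparison features, the features were picked as the most alike among members or other mouse features. All values come from arrays that share their normalization, and they carry no test.

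Differences between groups were tested for all 611 mouse miRNAs together with limma, and Benjamini-Hochberg adjusted p-values at a threshold of 0.05 made a call. No member was called in any of the 5 contrasts. In WT livers phenobarbital was followed by 0 calls among the 39 members, where 2.78% of all mouse miRNAs were called. At an unadjusted p under 0.05 there was 1 member, against 7.53% of all. Of the 39 differences 24 were above 0 (61.5%, against 49.9% of all mouse miRNAs) and 15 below. Their median was 0.04, and that of all mouse miRNAs was 0.00.

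The member with the smallest p in WT livers was miR-467b, which has been described in mouse cells as a repressor of lipoprotein lipase. It read 3.14, 3.35, 3.21 and 3.33 in controls and 3.42, 3.35, 3.44 and 3.68 with phenobarbital. The lowest treated array lay just above the highest control, so the groups did not overlap. The difference was 0.22 ± 0.09 on the log2 scale (SE; 95% confidence interval 0.02 to 0.41), and it did not pass (limma adjusted p = 0.540). Both groups lay well under the floor. miR-467f differed by 0.24 ± 0.20 (interval -0.19 to 0.66, adjusted p = 0.960). The groups of 2 members did not overlap, the other being miR-669j, and that is 5.13% of the members against 7.2% of all mouse miRNAs.

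In CTNNB1KO livers phenobarbital was again followed by no call among the members, and by none among all mouse miRNAs (0.0%). At an unadjusted p under 0.05 there was 1 member, against 5.24% of all. That member was miR-466i, the CA-repeat miRNA on chromosome 13. It read 3.75, 3.49, 3.94 and 3.51 in controls and 3.37, 3.47, 3.53 and 3.44 with phenobarbital. The 2 highest controls, replicates 1 and 3, stand apart, and the rest of the groups overlap. The difference was -0.22 ± 0.10 (interval -0.44 to -0.003; limma adjusted p = 0.902), and -0.13 without control replicate 3. miR-467f differed by -0.19 ± 0.20 (interval -0.62 to 0.23). Groups did not overlap for 3 members (7.69%, against 2.78% of all mouse miRNAs): miR-297a* and miR-467b* were higher and miR-669h-5p was lower with phenobarbital, and each of these lay under the floor on every array.

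Loss of Ctnnb1 without phenobarbital gave 0 calls among the members, with 0.818% of all mouse miRNAs called. At an unadjusted p under 0.05 there were 2 members, against 8.02% of all. These were miR-467b, at 3.64, 3.41, 3.39 and 3.49 in CTNNB1KO controls, and miR-466i. All 4 CTNNB1KO arrays lay above all 4 WT arrays for both. miR-467b differed by 0.23 ± 0.09 (interval 0.03 to 0.43) and miR-466i by 0.24 ± 0.10 (interval 0.02 to 0.45), each with a limma adjusted p of 0.557. The WT control values of miR-466i were 3.41, 3.40, 3.47 and 3.46, the narrowest of its 4 groups. This comparison uses the same WT control arrays as that of phenobarbital in WT, so the 2 differences of miR-467b are not independent. Of the 39 differences 29 were above 0 (74.4%, against 57.8% of all mouse miRNAs), with a median of 0.06 against 0.02. All 39 share the same WT control arrays. Replicate 4 of these had the lowest median over members of all arrays, 3.22, and held the lowest value of 11 members. How far the count rests on that array was not tested. Groups did not overlap for 4 members, miR-467b, miR-466i, miR-669f and miR-669g (10.3%, against 5.73%).

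**Figure D4:**
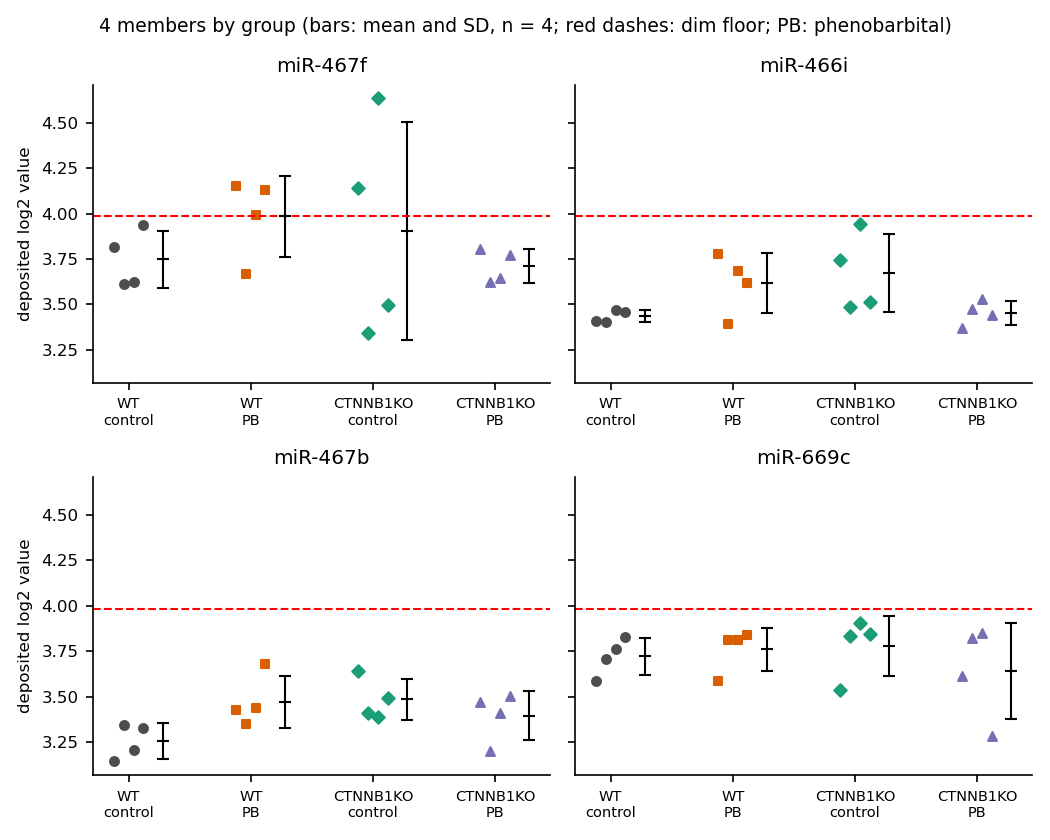
Deposited log2 values (vertical axis) of miR-467f, miR-466i, miR-467b and miR-669c on the 4 arrays of each group, with mean and SD beside them and the dim floor dashed. The values of miR-467b and miR-466i in WT controls lie below those in CTNNB1KO controls, and all values in the figure except 5 of miR-467f lie under the floor.

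Under phenobarbital, the comparison of genotypes called no member, with 3.76% of all mouse miRNAs called. No member reached an unadjusted p under 0.05 either, against 13.9% of all. There were 6 such members with array weights and 4 without WT phenobarbital replicate 2. Shares of all mouse miRNAs under those changes are not given here, so these counts have no background beside them. Closest without these changes was miR-466d-3p, at 3.14, 3.14, 3.01 and 3.14 in WT and 3.02, 3.33, 3.36 and 3.36 in CTNNB1KO. CTNNB1KO replicate 1 lies with the WT arrays and the other 3 above them. The difference was 0.16 ± 0.08 (interval -0.02 to 0.34; limma adjusted p = 0.462), and 0.24 without that array (adjusted p = 0.118). miR-467f differed by -0.27 ± 0.20 (interval -0.70 to 0.15). Only the groups of miR-669k did not overlap (2.56% of the members, against 11.5% of all).

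Whether phenobarbital acted differently in the 2 genotypes was tested as an interaction, the effect in CTNNB1KO minus that in WT. No member was called, with 1.15% of all mouse miRNAs called. At an unadjusted p under 0.05 there were 3 members, against 8.35% of all: miR-466i (-0.40 ± 0.15, adjusted p = 0.301), miR-466a-5p (-0.34 ± 0.13, adjusted p = 0.346) and miR-467b (-0.31 ± 0.13, adjusted p = 0.494). In each of these 3 the WT controls had the lowest of the 4 group means. For miR-467f the interaction was -0.43 ± 0.29 (adjusted p = 0.817), and -0.19 without CTNNB1KO control replicate 3. The 39 interaction values had a median of -0.11, against -0.01 over all mouse miRNAs. They too share the WT control arrays, of which replicate 4 held the lowest value of 11 members.

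**Figure D5:**
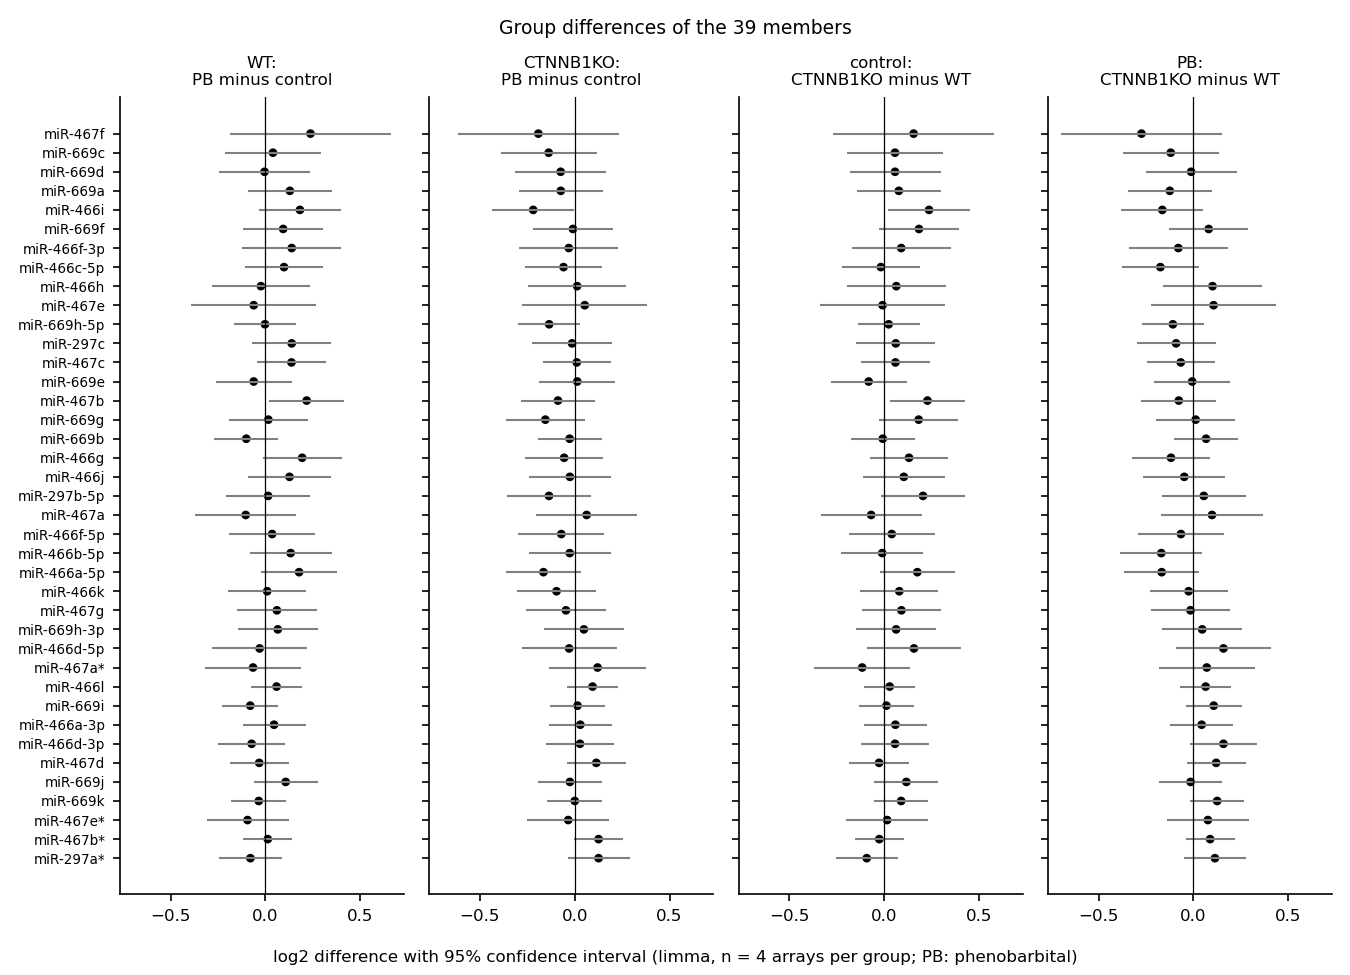
Log2 differences (horizontal axis) of the 39 members (rows, ordered by mean) in 4 comparisons, with 95% confidence intervals from limma. No member passed the adjusted threshold, which a red point would mark, and the intervals are widest for miR-467f.

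Over these 4 comparisons the differences of members lay between -0.27 and 0.24, and their standard errors between 0.062 and 0.20. The 95% intervals of all members stayed between -0.70 and 0.66. They bound the measured signal, which lay near background, and not the level of the miRNA itself.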

How the data were processed

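For each miRNA feature and array the authors deposited a log2 value; the submitters' processing notes name RMA and limma. Their versions, the background step and filters were not given in the sources used here. Labelling used an Agilent miRNA kit and 100 ng of total RNA, per the labels' protocols. The 650 features comprised 611 mouse and 39 viral miRNAs. Scanner intensities, detection calls and probe sequences were not used here. Precision is limited by the number of arrays.

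Groups and replicate numbers came from sample titles. All 611 mouse features on the 16 arrays entered 1 linear fit with a mean for each group (limma 3.58.1, R 4.3.3; eBayes with an intensity trend, 12 residual degrees of freedom; two-sided; Benjamini-Hochberg over 611). The fit was tested on simulated data with changes larger than those of the members, so that test does not speak to differences of their size. Members and lists were chosen with earlier results of these data known. Named members were those above the floor, the 3 brightest, the 3 with the largest SD, the smallest p per contrast, and those beside the floor; other members named in the text were chosen after their values were seen. Alternatives are given with the closing observations. Member places came from the RefSeq gene table (GRCm38.p6), which served only for names and neighbours, and sequences with their coordinates from RefSeq (GRCm38.p6).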

Additional observations from a re-analysis of the deposited data

Results flagged for a closer look

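In 4 cases 1 array of a named member stood far from the other 3 of its group by Dixon's criterion for 4 values. In all, 32 sets were examined. Chance flags about 1 in 20 of sets that were not picked by their values. Here miR-467e was named for its large SD and miR-466d-3p for its small p, so that rate does not hold. miR-669c read 3.59 on WT phenobarbital replicate 1, against 3.81 to 3.84 on the other 3. miR-467e read 3.06 on CTNNB1KO control replicate 1, against 3.54 to 3.59. miR-466d-3p read 3.01 on WT phenobarbital replicate 3, against 3.14 on each of the others, and 3.02 on CTNNB1KO phenobarbital replicate 1, against 3.33 to 3.36. All 4 are low values under the dim floor.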

How the results depend on the processing

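No member tested passed in any contrast under the 24 other settings (all but the 2-group fit for the interaction; with the floor filter only miR-467f was tested), which covered the eBayes trend, median centring, the floor filter, viral features in the fit, array weights, the replicate block, 2-group fits, the 2 muscle-bearing arrays left out and each array left out (0 to 0 members in every contrast). The smallest adjusted p of any member was 0.069, for miR-467b in WT with array weights. The number of members above the dim floor, 1, became 0 with the floor at the highest viral mean and with arrays centred on their median. By the floor of each array, exceeded on at least 3 of the 4 arrays of a group, it was 0 as well. With the floor at the viral mean plus 2 SD it was 1. It was 0 to 1 with single arrays left out, 0 for 8 of the 16 arrays: WT control replicates 1, 2 and 3, WT phenobarbital replicates 1 and 4, CTNNB1KO control replicate 3 and CTNNB1KO phenobarbital replicates 1 and 3. Without CTNNB1KO control replicate 3, miR-467f differed by 0.052 instead of -0.19 between phenobarbital and control in CTNNB1KO (-0.38 to 0.05 over single arrays) and by -0.088 instead of 0.16 between genotypes in controls (-0.09 to 0.34); its interaction was -0.19 instead of -0.43 (-0.62 to -0.19). At an unadjusted p under 0.05, array weights gave 6, 1, 2, 6 and 8 members in the 5 contrasts, in the order given, instead of 1, 1, 2, 0 and 3. Leaving out single arrays gave 0 to 4, 0 to 2, 1 to 3, 0 to 4 and 2 to 5. Shares of all mouse miRNAs at those settings are not given here, so these counts cannot be read as high or low for the set. Same-numbered arrays did not pair throughout: 8 of 24 such pairs had a correlation of deviations over 0.1 (-0.33 to 0.34). Some arrays of different groups did deviate alike over mouse features. Among WT control replicate 4, WT phenobarbital replicate 1, CTNNB1KO control replicate 1 and CTNNB1KO phenobarbital replicate 4, r lay between 0.15 and 0.38. These arrays, picked after their values were seen, are those on which miR-467e and miR-467a were low. What they share was not tested. With replicate number as a block, 0 members passed, with smallest adjusted p-values of 0.487, 0.708, 0.525, 0.333 and 0.241 in the 5 contrasts in the order given.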
